A study of Mus musculus with 4 samples.

Results

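Smooth muscle cells (SMCs) of the aortic root were compared across all genes with SMCs of the ascending aorta, using only cells that carried tdTomato, the reporter colour of cells without a neural crest mark. The mice were 12 weeks old and of the genotype Wnt1-Cre2.mT/mG. Wnt1-Cre2 drives the recombinase in the neural crest, and the mT/mG reporter makes membrane tdTomato until Cre switches a cell and its descendants to membrane eGFP. Aortic segments were digested in the cold, cells positive for ITGA8, an integrin subunit of SMCs, were sorted, and RNA of single cells was counted at its 3′ end in droplets, with molecules told apart by unique molecular identifiers (UMIs). All groups share the genotype, the age and the sort for ITGA8. The groups used here were tdTomato cells of the library named Root, whose title gives no colour, and tdTomato cells of the library named Asc-RFP (ascending aorta), with eGFP cells of Root, Asc-GFP and Arch-GFP (aortic arch) set beside them. The titles of the other libraries name a colour, so sorting by colour may differ between Root and Asc-RFP as the segment does. Before the reporter limits given below, 2741 Root and 3839 Asc-RFP cells passed, and 1900 and 3578 of them count as tdTomato cells. The part of sorting by colour in the contrast was not tested. Each group is 1 library, so no difference has a replicate check. The number and the sex of the animals are unstated in the sources used here. A crest descendant that Cre did not switch would count as a tdTomato cell, and SMCs with little ITGA8 on their surface would be missed by the sort.

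Cells were chosen by UMI counts. A barcode needed at least 1000 detected genes, at most 10% mitochondrial UMIs, at least 10 UMIs of Myh11 (smooth muscle myosin), at most 5 UMIs of the macrophage genes C1qa, C1qb and Lyz2 together, at most 1 UMI of the endothelial genes Cdh5 and Emcn together, at least 1 tdTomato UMI and at most 2 eGFP UMIs. This kept 1900 of the 4040 Root barcodes and 3578 of the 6539 Asc-RFP barcodes, together 5478 of the 29930 barcodes of the series. They are called root cells and ascending cells below. The rule and the genes Corin, Rgs17, Apoe, Tafa1 and Sfrp2 were chosen with earlier results of this contrast known, so the values below are descriptions and carry no test.

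Vascular SMCs of the proximal aorta descend from more than 1 embryonic source. The root is built largely by the second heart field, the ascending aorta by both the second heart field and the neural crest, and the arch largely by the crest. Adult SMCs hold a contractile apparatus of smooth muscle actin, myosin and their regulators, lay down elastic fibres and collagens, and set their tone through G protein-coupled receptors, nitric oxide and natriuretic peptides. By its title, the series concerns aortic SMCs of cardiac and of crest descent. Comparing tdTomato cells with tdTomato cells holds the reporter constant while the segment differs.

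Root cells held 26686708 UMIs in all (median 13755 UMIs and 3658 genes per cell) and ascending cells 50814302 (median 14051 UMIs and 3704 genes), and the median mitochondrial share was 4.92% and 4.98%. Both groups had a median of 5 tdTomato UMIs and 0 eGFP UMIs. Just outside the tdTomato limit, 199 Root and 236 Asc-RFP cells had 0 tdTomato UMIs (medians of 11515 and 6684.5 UMIs), and just inside it 205 and 343 had exactly 1. At the eGFP limit, 81 root and 84 ascending cells had 2 eGFP UMIs, while 23 and 19 left out had 3. At the Myh11 limit, 33 root and 99 ascending cells had 10 to 14 UMIs, while 22 and 70 left out had 5 to 9. The libraries shared 9 barcode sequences, 1 of them among the cells compared. Of 12 SMC markers, 11 differed by under 0.5 on the log2 scale, and only Pln was higher in root cells. The sort for ITGA8 and the Myh11 limit selected SMCs in both groups, so this likeness is no separate check of cell type. Sex differed: of cells with RNA of 1 sex, 88.2% were female in Root (1587 female, 212 male) and 54.5% in Asc-RFP (1705 female, 1421 male), and 40 and 193 cells held RNA of both. Values within female and within male cells are therefore given beside the pooled ones. Female and male cells come from different animals, so a difference between the sexes cannot be told apart from one between animals. Cells of 1 library are not replicates, and for genes at low levels fewer cells with a gene and less of it per cell cannot be told apart.

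The promoters of the 5 marker genes are shown because these genes lead the comparison in either direction. Each is the RefSeq sequence on GRCm38.p6 from 250 bases before to 50 after the gene's start, 300 bases in all, written 5′ to 3′ on the gene's strand. They lie at chr5:72504491-72504790 (Corin, minus strand), chr10:5922351-5922650 (Rgs17, minus), chr7:19699139-19699438 (Apoe, minus), chr3:83766071-83766370 (Sfrp2, plus) and chr6:96112904-96113203 (Tafa1, plus). Capitals mark matches, on either strand, of CAGAC (a core that SMAD proteins bind, GTCTG on the other strand) and GATAA (GATA factors, TTATC on the other strand).
Corin: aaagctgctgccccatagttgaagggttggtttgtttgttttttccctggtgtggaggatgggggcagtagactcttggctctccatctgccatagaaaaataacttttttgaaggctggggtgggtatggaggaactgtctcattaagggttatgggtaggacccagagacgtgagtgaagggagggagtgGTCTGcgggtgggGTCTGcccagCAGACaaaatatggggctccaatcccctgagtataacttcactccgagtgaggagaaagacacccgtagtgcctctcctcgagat
Rgs17: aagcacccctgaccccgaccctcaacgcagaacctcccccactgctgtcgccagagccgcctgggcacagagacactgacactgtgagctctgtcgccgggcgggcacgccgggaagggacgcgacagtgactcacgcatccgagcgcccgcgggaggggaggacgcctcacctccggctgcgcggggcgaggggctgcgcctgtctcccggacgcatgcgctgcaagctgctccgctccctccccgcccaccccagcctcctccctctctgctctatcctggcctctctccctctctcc
Apoe: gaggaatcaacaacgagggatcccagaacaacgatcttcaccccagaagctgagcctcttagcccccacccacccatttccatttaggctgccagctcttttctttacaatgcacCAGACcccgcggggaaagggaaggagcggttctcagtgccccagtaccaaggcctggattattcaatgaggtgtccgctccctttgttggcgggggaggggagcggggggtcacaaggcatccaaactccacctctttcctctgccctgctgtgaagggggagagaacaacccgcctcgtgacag
Sfrp2: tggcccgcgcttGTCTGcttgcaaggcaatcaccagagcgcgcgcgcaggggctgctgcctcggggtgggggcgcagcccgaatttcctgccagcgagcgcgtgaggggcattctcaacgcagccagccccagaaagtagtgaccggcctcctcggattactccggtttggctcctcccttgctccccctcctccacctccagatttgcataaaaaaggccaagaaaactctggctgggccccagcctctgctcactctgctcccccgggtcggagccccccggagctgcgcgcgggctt
Tafa1: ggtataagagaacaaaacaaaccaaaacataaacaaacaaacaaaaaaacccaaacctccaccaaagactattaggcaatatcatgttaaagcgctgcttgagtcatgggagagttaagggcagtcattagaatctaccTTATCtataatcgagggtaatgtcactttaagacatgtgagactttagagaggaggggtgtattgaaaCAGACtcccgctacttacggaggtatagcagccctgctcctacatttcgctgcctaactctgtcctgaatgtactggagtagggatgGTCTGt
Besides these motifs, both strands were searched for CANNTG (the E-box), AGGTCA (nuclear receptors), TATAAA (the TATA box), CTTTGA (TCF/LEF factors) and the CArG box of serum response factor. The SMAD core occurred 3 times in the Corin promoter, 2 times in that of Tafa1 and 1 time each in those of Apoe and Sfrp2. The E-box occurred 1 time in the promoters of Corin and of Tafa1, the GATA motif 1 time in that of Tafa1, and the Rgs17 promoter held no match. Of all 32851 promoters of the table, 49.6% hold the SMAD core, 25.4% the GATA motif, 72.3% an E-box, 16.3% the nuclear receptor motif, 13.6% a TATA box, 16.0% the TCF/LEF motif and 1.63% a CArG box. Of the 30 genes with the largest differences, 21 matched the table by symbol, 10 of them higher in root cells, and the SMAD core stood in 4 of the higher and 7 of the lower genes and the GATA motif in 1 and 4. GC content was 51.7% for Corin, 71% for Rgs17, 57.7% for Apoe, 66% for Sfrp2 and 42% for Tafa1, and the median over the table was 52.7%. A match is a run of letters, not a bound site.

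Levels are counts per 1000000 UMIs (CPM), summed over the cells of a group, and ratios are log2 ratios of root over ascending cells. Ranges in parentheses are exact 95% intervals for counting error alone and leave out the spread between animals. The segments were close to each other: of 5767 genes at 20 CPM or more in either group, 5472 (94.9%) differed by under 0.5 on the log2 scale, and the median ratio was -0.0041. At least 2-fold, 49 genes were higher in root cells, 0.850% of those measured, and 31 were lower, 0.538%, together 1.39%. These percentages are set by the contrast that chose the cells, and nothing is read from them. Of the 31 lower genes, 2 were Y-linked (Eif2s3y and Ddx3y), which follow the sexes of the cells. The other 29 and the 49 higher genes kept their direction within female cells and within male cells. The size was 2-fold or more for 40 higher and 24 lower genes within female cells, and for 40 and 27 within male cells. The genes were chosen in the pool of these same cells, and 1587 of the 1900 root cells were female. A kept direction is therefore no separate check.

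**Figure D1:**
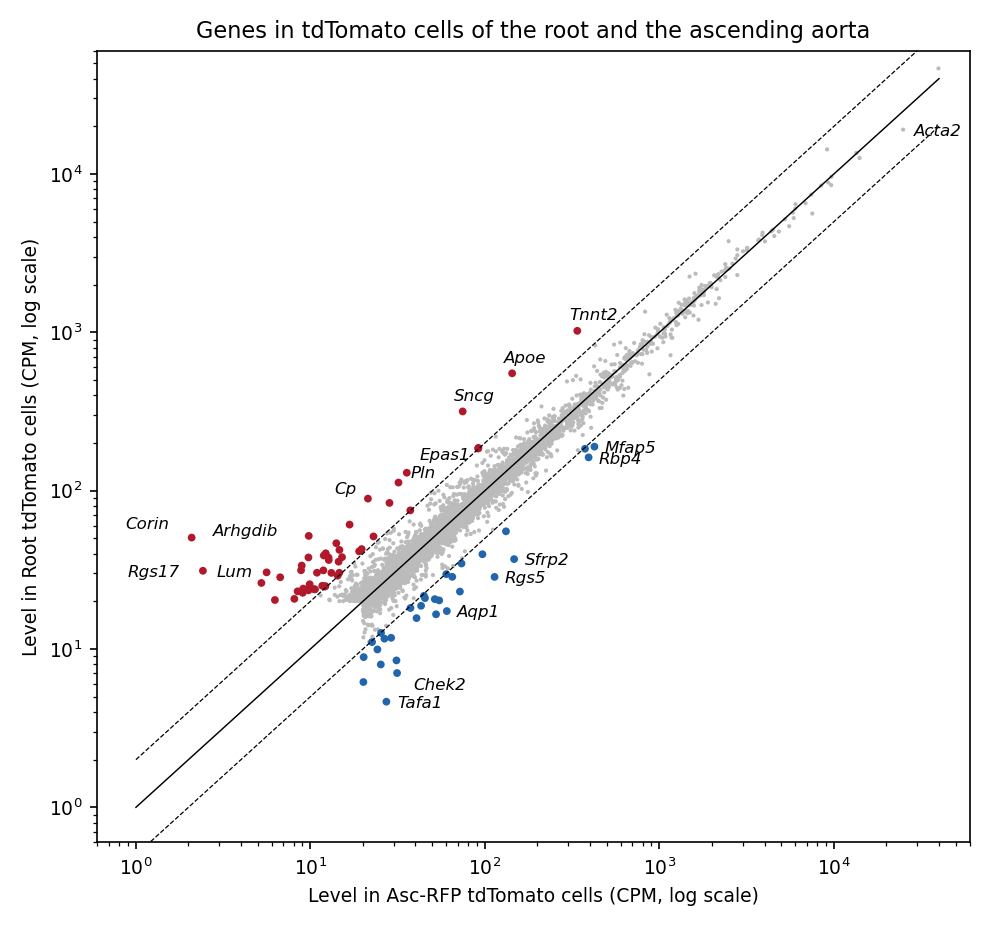
Levels of the 5767 genes at 20 CPM or more in tdTomato cells of Asc-RFP (x axis) and Root (y axis), in CPM on log axes, with the line of equal levels (solid) and of 2-fold difference (dashed). The 49 genes higher in root cells (red) include Corin, Rgs17, Apoe and Tnnt2, the 31 lower (blue) include Tafa1, Sfrp2 and Rgs5, and Acta2 lies within 2-fold.

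Corin had the largest ratio of the genes at 20 CPM or more. It encodes a membrane protease that cuts the precursor of atrial natriuretic peptide to its active form (ENSMUSG00000005220, chromosome 5, 72300025 to 72504473, minus strand, GENCODE M21 on mm10). It stood at 50.5 CPM (47.9 to 53.3) in root cells, from 1348 UMIs, and at 2.09 CPM (1.71 to 2.52) in ascending cells, from 106 UMIs, a log2 ratio of 4.60 (4.31 to 4.90), or 24.2-fold. Within female cells the levels were 39.7 and 1.74 CPM, a log2 ratio of 4.51, and within male cells 119 and 2.50 CPM, a log2 ratio of 5.58. The level in root cells was thus higher in male than in female cells, while both sexes of ascending cells were low. In eGFP cells Corin stood at 41.5 CPM (37.1 to 46.4) in Root, 1.29 (1.06 to 1.56) in Asc-GFP and 0.205 (0.125 to 0.316) in Arch-GFP. Both kinds of Root cells were therefore high, and the 3 groups from the ascending aorta and the arch were low. An antisense gene, Gm20647, overlaps Corin.

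The other genes of natriuretic peptide signalling were divided. Of the 16 listed genes, 10 were measured at 5 CPM or more in either group, and, taking log2 ratios beyond 0.5 as different, 3 were higher, 1 was lower and 6 were within that limit, with a median of 0.07. Over all 9730 genes at 5 CPM or more, 3.92% were higher by that limit and 2.95% lower, together 6.87%. These shares are the background of every list count below. Npr1, the receptor for atrial natriuretic peptide, was the lower one, at 41.4 CPM (39.0 to 43.9) in root and 76.7 (74.3 to 79.2) in ascending cells, a log2 ratio of -0.89 (-0.89 in female and -1.72 in male cells). The other two higher genes were Pcsk6, a proprotein convertase known to activate corin, with a log2 ratio of 0.83, and Prkg1, the cGMP-dependent kinase of smooth muscle, with 0.71 (94.2 and 57.8 CPM). The convertases Furin (0.08) and Pcsk5 (0.19), the receptors Npr2 (0.06) and Npr3 (-0.15) and the phosphodiesterases Pde3a (0.06) and Pde5a (-0.08) were within the limit.

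RGS proteins speed the hydrolysis of GTP by G protein alpha subunits and so shorten receptor signals. Rgs17, a member of this family (ENSMUSG00000019775, chromosome 10, 5825663 to 5922400, minus strand), stood at 31.2 CPM (29.1 to 33.4) in root and 2.42 (2.01 to 2.89) in ascending cells, a log2 ratio of 3.69 (3.41 to 3.97) or 12.9-fold. Its ratio was 3.56 within female and 3.46 within male cells. The eGFP cells held 18.1 CPM in Root, 2.01 in Asc-GFP and 2.36 in Arch-GFP, so the 3 groups outside the root were near 2 CPM. Of 22 listed RGS genes, 9 were measured, and Rgs17 was the only higher one, while 5 were lower and 3 within, with a median of -0.58. Rgs5, known as a marker of arterial SMCs and pericytes, was the lowest of them, at 28.5 CPM (26.5 to 30.6) in root and 114 (111 to 117) in ascending cells, a log2 ratio of -1.99 (-2.10 to -1.88). The ratio of Rgs5 was -1.83 in female cells and -4.19 in male cells, with 6.54 CPM in male and 32.6 CPM in female root cells. Its level in eGFP cells was 8.39 CPM in Root, 100.1 in Asc-GFP and 340.3 in Arch-GFP. Pericyte markers, a list that holds Rgs5 itself, summed to 764 CPM in root and 795 in ascending cells. Most of this was Gucy1b1 (344 and 290 CPM) and Cspg4 (293 and 282 CPM), and Vtn and Steap4 were at 0 in both. Notch3, Ndufa4l2 and Higd1b of that list were higher in root cells, and Abcc9 and Kcnj8 were lower. The part of pericyte RNA in the Rgs5 value was not tested. The other lower members were Rgs4 (63.6 and 103 CPM, log2 ratio -0.70), Rgs7 (-0.69), Rgs2 (-0.60) and Rgs10 (-0.58).

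Apoe, the lipid carrier apolipoprotein E (ENSMUSG00000002985, chromosome 7, 19696109 to 19699188, minus strand), stood at 551 CPM (542 to 559.8) in root and 143 (139.9 to 146) in ascending cells, a log2 ratio of 1.94 (1.90 to 1.98) or 3.85-fold. It was 1.94 within female and 1.57 within male cells. In eGFP cells the level was 416 CPM in Root, 176 in Asc-GFP and 167 in Arch-GFP, again with both Root groups above the others. Lipid carriers and uptake genes as a list were split, with 2 higher, 2 lower and 9 within among 13 measured of 22 listed (median 0.04). Fabp4, a fatty acid binding protein also known from endothelium, was higher (149 and 96.8 CPM, log2 ratio 0.63), and Fabp3 (-0.68) and Pltp, a phospholipid transfer protein (-0.60), were lower. The lipoprotein receptor Lrp1 (-0.02) was within the limit.

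Among chemokines, complement and adhesion genes, 7 of 8 measured members of 20 listed were higher, none was lower, and the median was 1.16. They included the complement components C4b (7.87 and 0.669 CPM, log2 ratio 3.56), C1s1 (38.9 and 11.9 CPM, 1.71) and C1ra (25.6 and 9.90 CPM, 1.37), the adhesion molecule Vcam1 (46.9 and 24.3 CPM, 0.95), the chemokine Cxcl12 (88.2 and 49.2 CPM, 0.84) and the invariant chain Cd74 (5.10 and 1.16 CPM, 2.13). Of these 7, 2 reached 20 CPM and a 2-fold ratio, C1s1 and C1ra. C4b has a near-identical copy, C4a, so its counts are uncertain. Serping1, the inhibitor of the first complement proteases, was within (0.09).

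Macrophages make Apoe, C4b and Cd74 too, and residual macrophage RNA differed between the groups. The 12 macrophage markers summed to 12.8 CPM in root and 5.22 CPM in ascending cells, with none of them at 0, and the largest was Cd74 itself. In Root barcodes rejected for at least 20 UMIs of the 3 macrophage genes (55 barcodes), Apoe stood at 23933 CPM, or 0.670 Apoe UMIs per UMI of the marker list. In root cells that ratio was 43.0, and in ascending cells 27.4 against 0.506 in the Asc-RFP macrophage barcodes. For C4b it was 0.614 in root cells against 0.0101 in the Root macrophage barcodes. The cells were kept for few UMIs of macrophage genes and the barcodes picked for many, so part of this gap was set by the choice. The part of macrophage RNA in these values was not tested. Among the 291 root and 905 ascending cells with no UMI of any macrophage, endothelial or lymphocyte marker, the log2 ratio was 1.74 for Apoe, 1.99 for C4b, 4.75 for Corin and 2.51 for Rgs17, while Vcam1 had -0.10. Fabp4 is 1 of these markers and had a UMI in 59.3% of root and 48.3% of ascending cells. This subset is therefore small and leaves out many cells for Fabp4, and ratios of genes with few UMIs are uncertain in it. Summed endothelial markers were 225 and 154 CPM, mostly Fabp4 and Flt1, with the defining gene Kdr at 0.0749 and 0.0394 CPM. The part of endothelial RNA in the Fabp4 value was not tested.

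Tafa1 had the lowest ratio of the genes at 20 CPM or more. It encodes a small secreted protein of a family best known from the brain (ENSMUSG00000059187, chromosome 6, 96113154 to 96657198, plus strand). It stood at 4.65 CPM (3.86 to 5.54) in root and 27.2 (25.8 to 28.7) in ascending cells, a log2 ratio of -2.55 (-2.83 to -2.29), or 5.86-fold lower. The ratio was -2.54 within female and -3.36 within male cells. In eGFP cells the level was 8.12 CPM in Root, 22.5 in Asc-GFP and 26.8 in Arch-GFP, so both Root groups were below the other 3. A protein-coding gene on the opposite strand, 1700123L14Rik, overlaps Tafa1, and strand counting was not given in the sources used here. Of 18 listed ligands of this kind, 4 were measured and 3 were lower, with a median of -0.82: Tafa1, Tafa5 (6.37 and 12.5 CPM, -0.97) and the neurotrophin Ntf3 (75.4 and 120.0 CPM, -0.67). Bdnf, another neurotrophin, was within, at 0.19, and at -0.21 in male cells.

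Secreted Wnt antagonists went both ways. Sfrp2, a frizzled-related protein that binds Wnts outside the cell (ENSMUSG00000027996, chromosome 3, 83766321 to 83774316, plus strand), stood at 36.9 CPM (34.7 to 39.3) in root and 147 (144 to 150.3) in ascending cells, a log2 ratio of -1.99 (-2.09 to -1.90), with -2.04 within female and -2.45 within male cells. Its relative Sfrp1 stood at 33.6 CPM (31.5 to 35.9) in root and 8.91 (8.11 to 9.77) in ascending cells, a log2 ratio of 1.92, with 2.30 within female and 1.23 within male cells. The eGFP cells showed the same order for both genes: Sfrp2 was at 32.5 CPM in Root, 249.6 in Asc-GFP and 443 in Arch-GFP, and Sfrp1 at 71.4, 13.7 and 5.52 CPM. An antisense gene, Gm26771, overlaps Sfrp2. Of 7 measured antagonists of 13 listed, 2 were higher (Sfrp1 and Frzb, 0.79), 2 lower (Sfrp2 and Wif1, -0.56) and 3 within, with a median of 0.26 that turned to -0.47 over members at 20 CPM or more. Wnt ligands, receptors and targets had 5 of 21 measured members higher and none lower (median 0.13): the Wnt target Ccn4 (9.86 and 2.64 CPM, log2 ratio 1.90), the feedback inhibitor Nkd2 (1.60), the agonist Rspo3 (0.93) and the receptors Lrp5 (0.54) and Fzd1 (0.52). The ligands Wnt5a (-0.26), Wnt9a (-0.49) and Wnt16 (0.31) were within.

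Of 34 measured contractile genes of 35 listed, 32 were within the limit, 1 was higher and 1 lower, and the median was -0.09. Those 2 of 34 are close to the 6.87% of all genes beyond that limit. Acta2, smooth muscle alpha-actin, stood at 19057 CPM in root and 24906 in ascending cells (-0.39), Tagln had 0.02, Cnn1 -0.09, Mylk 0.03 and the co-activator Myocd 0.42. The higher gene was Pln, phospholamban, the inhibitor of the calcium pump of the sarcoplasmic reticulum, at 112 CPM (108 to 117) and 32.0 (30.4 to 33.6), a log2 ratio of 1.81, with 1.90 in female and 2.37 in male cells. The lower was Actg2, smooth muscle gamma-actin, at 180.1 and 341 CPM (-0.92), with -1.04 in female and -0.25 in male cells. Tnnt2, cardiac troponin T, stood at 1022 CPM (1010 to 1034) in root and 338 (333 to 343) in ascending cells, a log2 ratio of 1.59 (1.57 to 1.62), with 1.58 in female and 1.68 in male cells. In eGFP cells it was 296 CPM in Root, 58.8 in Asc-GFP and 19.4 in Arch-GFP. Tnnt2 was the only higher member of 5 measured cardiac sarcomere genes of 18 listed, with Myl4 (0.44), Ryr2 (0.20), Myom1 (0.17) and Actn2 (-0.26, and 0.15 in male cells) within. The 12 cardiomyocyte markers, a list without Tnnt2, summed to 96.6 and 73.0 CPM, mostly Ryr2 (65.4 and 56.8 CPM) and Myl4 (18.8 and 13.9 CPM). Defining members were low but higher in root cells: Actc1 at 4.65 and 0.0984 CPM, Myh6 at 0.749 and 0.0394 CPM, Ttn at 4.27 and 1.32 CPM and Tnni3 at 1.72 and 0.610 CPM. Being under 5 CPM, they were not among the measured sarcomere genes. Nppb was at 0 in both. The part of cardiomyocyte RNA in the Tnnt2 value was not tested.

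Regulators of heart development, a list of transcription factors and cofactors with some secreted ligands, were divided. Of 34 listed, 22 were measured, with 3 higher, 3 lower and 16 within (median 0.20). Gata4, a zinc finger factor of cardiac development, stood at 13.3 CPM (11.9 to 14.7) in root and 2.68 (2.25 to 3.17) in ascending cells, a log2 ratio of 2.31 (2.02 to 2.61), with 3.07 in female and 2.39 in male cells. In eGFP cells Gata4 was at 15.6 CPM in Root, 2.02 in Asc-GFP and 0.0205 in Arch-GFP. Tbx20, a T-box factor of heart and outflow tract, stood at 40.2 CPM (37.8 to 42.7) and 12.2 (11.3 to 13.2), a log2 ratio of 1.72, and Tbx2 at 14.7 and 7.03 CPM (1.06). Foxf1, a forkhead factor of mesoderm, was at 2.32 CPM (1.78 to 2.98) in root and 12.1 (11.2 to 13.1) in ascending cells, a log2 ratio of -2.38, with -2.23 in female and -4.16 in male cells. No Foxf1 UMI was found in Root eGFP cells, where 3 UMIs would be 0.393 CPM, while Asc-GFP eGFP cells held 4.69 CPM and Arch-GFP 14.2 CPM. Foxf1 overlaps Gm20388, and Mia, described below, overlaps Gm21983, each on the same strand, so both counts are uncertain. Irx5 (2.44 and 5.81 CPM, -1.25) and Irx3 (7.68 and 16.4 CPM, -1.10), factors of the Iroquois family, were the other lower genes. Irx5 was low in eGFP cells, with no UMI in Root, 0.0725 CPM in Asc-GFP and 0.287 in Arch-GFP. Isl1 (0.48), Gata6 (0.11), Hand2 (0.27) and Mef2c (0.11) were within.

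HOX genes give segments their position along the body axis. Of 22 listed, 6 were measured, and 5 were lower and none higher in root cells, with a median of -0.67. Over all genes 2.95% were lower by that limit. Only 2 of the 6 reached 20 CPM, with a median of -0.53. Hoxb2 stood at 18.6 CPM (17.0 to 20.3) in root and 31.2 (29.7 to 32.8) in ascending cells, a log2 ratio of -0.74, with -0.69 in female and -0.94 in male cells. Hoxa5 (-0.98), Hoxb3 (-0.69), Hoxa4 (-0.65) and Hoxb4 (-0.61) were also lower, and Hoxa3 (-0.31) was within. In the annotation Hoxa4 and Hoxa5 each overlap Hoxa3 on the same strand, so their counts may not be separate. Regulators known from the neural crest but not limited to it had 5 of 12 measured members of 26 listed higher and none lower (median 0.41): Snai2 (11.5 and 4.72 CPM, 1.28), Zeb2 (96.2 and 51.4 CPM, 0.90), Sox9 (6.67 and 3.98 CPM, 0.75), Id1 (0.71) and Id3 (0.64). The Notch pathway, which maintains arterial SMCs, had 3 of 10 measured members higher and none lower. Notch3 stood at 46.5 CPM (44.0 to 49.2) and 14.1 (13.1 to 15.1), a log2 ratio of 1.73, with Notch1 at 1.28 and the ligand Jag1 at 0.59, while the targets Hey2 (0.47), Heyl (0.40) and Hes1 (-0.04) were within.

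Matrix genes differed in both directions. Lum, the collagen-binding proteoglycan lumican, stood at 30.5 CPM (28.4 to 32.6) in root and 5.61 (4.98 to 6.30) in ascending cells, a log2 ratio of 2.44 (2.24 to 2.64), with 2.09 in female and 1.18 in male cells. The share of Root cells with a Lum UMI was small, as given below, and the highest cell held 59 Lum UMIs. Acan, the cartilage proteoglycan aggrecan, stood at 35.6 and 14.5 CPM (1.30), and Comp, a cartilage matrix protein, at 10.3 and 2.60 CPM (1.99), while Mia was lower (4.42 and 15.4 CPM, -1.80). In eGFP cells Acan stood at 44.2 CPM in both Root and Asc-GFP. Among 8 measured small leucine-rich proteoglycans, Lum and Dcn (80.4 and 46.8 CPM, 0.78, and -0.14 without cells holding a Lum UMI) were higher, Aspn (-0.60) was lower and 5 were within.

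Elastic fibre genes had 5 of 19 measured members of 24 listed lower and 1 higher (median -0.16). Mfap5, a microfibril glycoprotein, stood at 189.6 CPM (184 to 195) in root and 424 (419 to 429.9) in ascending cells, a log2 ratio of -1.16, with -1.31 in female and -2.20 in male cells. The others were Mfap4 (543 and 876 CPM, -0.69), Ltbp2 (-0.56) and the lysyl oxidases Loxl3 (-0.92) and Loxl2 (-0.86), and Fbln1 was higher (14.8 and 7.08 CPM, 1.06). Eln itself had -0.48 and Fbn1 0.01. Collagens were split 5 higher, 4 lower and 11 within of 20 measured: Col8a1 (25.1 and 11.7 CPM, 1.10), Col4a4 (0.97), Col6a6 (0.82), Col16a1 (0.75) and Col4a3 (0.54) were higher, and Col6a2 (98.0 and 176 CPM, -0.85), Col6a1 (-0.66), Col15a1 (-0.62) and Col5a1 (-0.57) were lower. Of 24 measured proteases and inhibitors, Mmp3 (18.7 and 3.90 CPM, 2.26), Timp4 (28.4 and 14.2 CPM, 1.99-fold), Adamts1 (177 and 104 CPM, 0.77) and Adamtsl3 (0.53) were higher, though Timp4 had -0.09 in cells with no UMI of macrophage, endothelial or lymphocyte markers, and Plat, tissue plasminogen activator (20.6 and 51.6 CPM, -1.32), Mmp17 (-0.71) and Htra1 (-0.70) were lower.

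Fibroblast markers summed to 638 CPM in root and 900 in ascending cells. Most of this was Gsn (369 and 446 CPM) and Mfap5, so the sum does not give the direction of the other members. Scara5 and Ly6a were at 0 in both, and Pdgfra was at 8.02 and 6.38 CPM. Mfap5 and Lum stand on that list as well. Cd34, like Lum, was higher in root cells (37.8 and 12.7 CPM), while Dpt (0.150 and 1.22 CPM) and Smoc2 (2.51 and 3.27 CPM) were lower. Leaving out cells with a UMI of 8 fibroblast genes kept 1276 of 1900 root and 2866 of 3578 ascending cells. Among these the log2 ratio was 1.30 for Lum, 1.08 for Mmp3 and -0.96 for Mfap5. Genes of modulated SMCs, a state described in diseased arteries, had 7 of 15 measured members of 20 listed higher and none lower (median 0.45). The median of these genes was 0.057 in cells with no UMI of macrophage, endothelial or lymphocyte markers, and 0.33 without cells holding a Lum UMI. The higher members were Lum, Thbs1 (1.19), Col8a1, Vcam1, Cd44 (0.85), Mgp (14281 and 9130 CPM, 0.65) and Tnc (0.59), while Lgals3 (-0.46), Timp1 (-0.44), Fn1 (-0.15) and Klf4 (0.17) were within.

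TGF-beta and BMP signals act on SMC differentiation. Of 30 measured TGF-beta genes of 31 listed, 5 were higher and none lower (median 0.07), among them the inhibitory Smad6 (41.4 and 19.0 CPM, 1.12) and Smad7 (97.1 and 49.0 CPM, 0.99), Fst, an activin-binding protein (12.1 and 4.09 CPM, 1.57), and Thbs1, which can release latent TGF-beta (23.9 and 10.4 CPM, 1.19). The receptors Tgfbr1 (0.07) and Tgfbr2 (0.21), the ligands Tgfb1 (0.14), Tgfb2 (-0.30) and Tgfb3 (0.27), and Smad2 (-0.04), Smad3 (0.07) and Smad4 (0.13) were within. Thbs1 had a log2 ratio of 0.76 in female and 2.67 in male cells, and Fst 1.32 in female and 0.13 in male cells. In the cells with no UMI of macrophage, endothelial or lymphocyte markers, Fst had -1.03. The highest root cell held 56 Fst UMIs and the highest ascending cell 16. Of 18 measured BMP genes, 5 were higher, 4 lower and 9 within (median 0.18). Bmp2 stood at 38.0 CPM (35.7 to 40.4) and 15.2 (14.1 to 16.3), a log2 ratio of 1.32, Smad9 had 0.75 and the targets Id1 and Id3 were higher as above. The receptor Bmpr1b (20.9 and 45.3 CPM, -1.11), the ligand Bmp3 (-0.67) and the antagonists Nbl1 (-0.75) and Chrd (-0.63) were lower.

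Of 22 measured channel and calcium genes 2 were higher and 2 lower, and of 9 measured vasoactive receptors 3 were higher and 1 lower, against 6.87% of all genes beyond the limit in either direction. Kcnk3, a background potassium channel, stood at 9.14 and 2.26 CPM (2.01) and the stretch-gated channel Piezo2 at 13.1 and 7.14 CPM (0.88). The subunits of the ATP-sensitive potassium channel of vessels were both lower, Abcc9 (34.7 and 73.4 CPM, -1.08) and Kcnj8 (14.1 and 22.2 CPM, -0.65). The calcium channel Cacna1c (-0.08), the calcium pump Atp2a2 (0.04) and Kcnma1 (-0.12) were within. Among vasoactive receptors P2rx1 (0.89), Ednra, the endothelin receptor of SMCs (0.87), and Adrb1 (0.68) were higher and Ackr3 (-1.46) was lower. Axon guidance genes had 5 higher, 4 lower and 14 within of 23 measured: the netrin receptor Unc5b (18.8 and 5.79 CPM, 1.70), Plxna2 (24.2 and 9.82 CPM, 1.30), Epha7 (0.92), Nrp1 (0.63) and Slit3 (0.51) were higher, and Nrp2 (-1.02), Sema3c (33.5 and 65.7 CPM, -0.97), Ntn1 (-0.81) and Sema3d (-0.51) were lower.

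**Figure D2:**
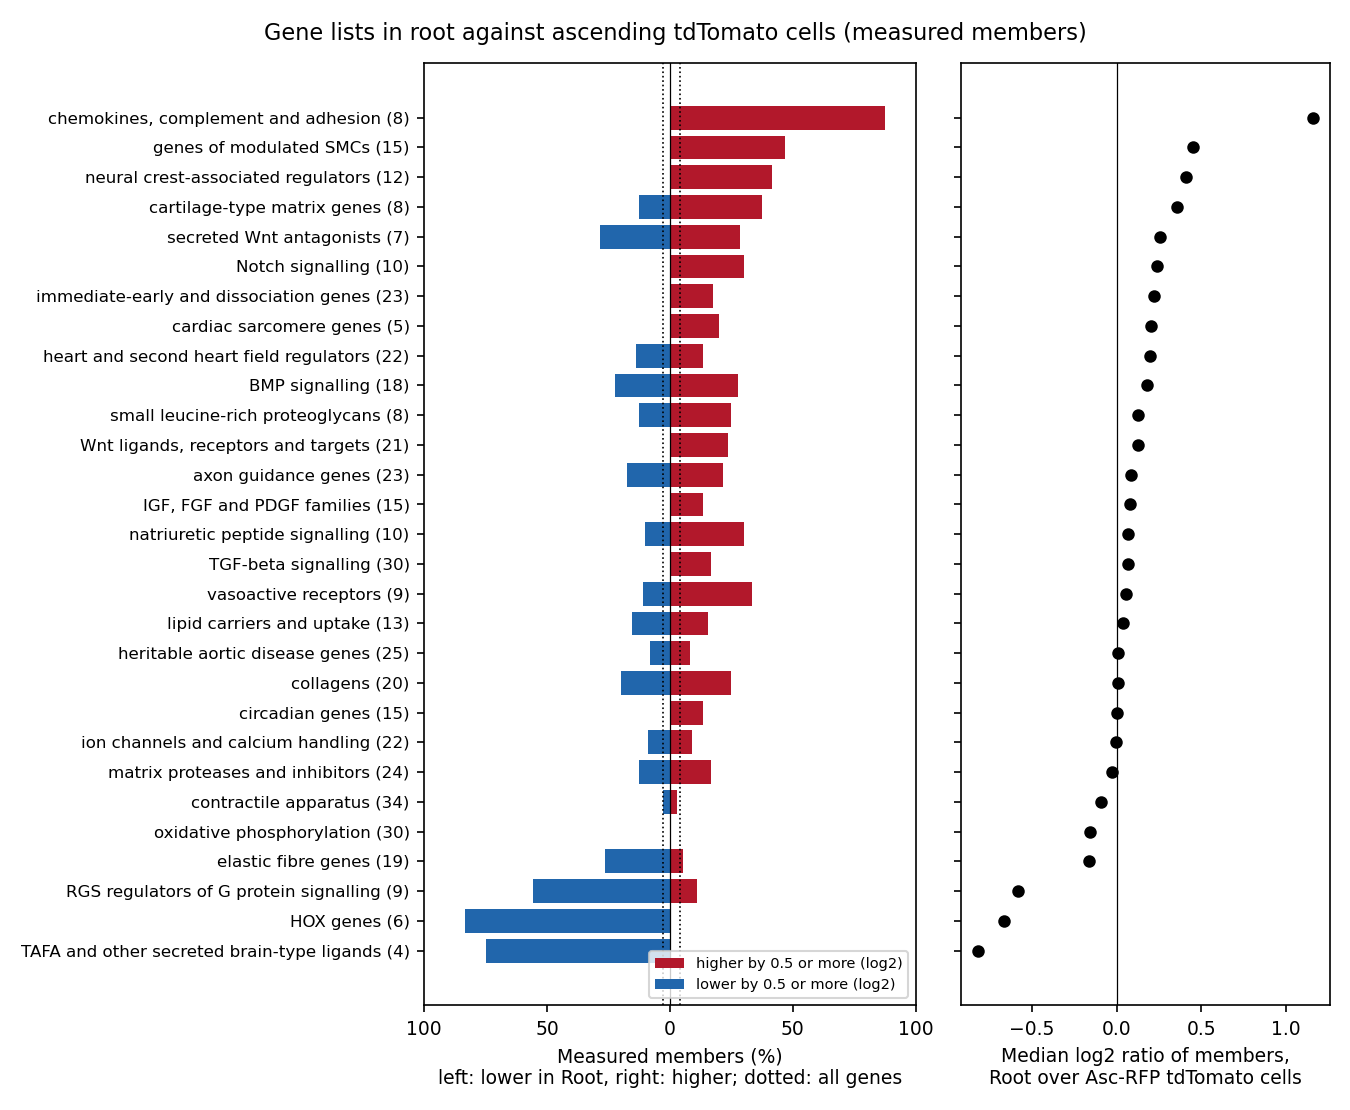
Measured members of 29 gene lists, with their number in parentheses, that were higher (red, to the right) or lower (blue, to the left) by at least 0.5 on the log2 scale, as a percentage of the measured members, and the median log2 ratio of each list (right panel). Dotted lines mark 3.92% and 2.95%, the same counts over all genes, and the ends are the complement list (7 of 8 higher) and the HOX and TAFA lists (5 of 6 and 3 of 4 lower).

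Further genes led the comparison without standing on a list. Sncg, gamma-synuclein, stood at 316 CPM (309.7 to 323) in root and 74.5 (72.2 to 77.0) in ascending cells, a log2 ratio of 2.09. Epas1, the hypoxia-inducible factor HIF-2 alpha, stood at 129.7 CPM (125 to 134) and 35.7 (34.0 to 37.3), a log2 ratio of 1.86. Cp, the copper-binding ferroxidase ceruloplasmin, stood at 89.0 CPM (85.5 to 92.7) and 21.4 (20.1 to 22.7), a log2 ratio of 2.06. All 3 were higher within each sex as well, with 2.13 and 2.44 for Sncg, 2.05 and 2.13 for Epas1 and 1.83 and 1.52 for Cp in female and male cells. In the cells with no UMI of macrophage, endothelial or lymphocyte markers, Epas1, which endothelium also expresses, had a log2 ratio of 2.07 and Cp one of 1.67. Arhgdib, an inhibitor of small GTPases that blood cells express strongly, stood at 51.8 and 9.78 CPM (2.40). In Root macrophage barcodes it stood at 672 CPM, or 0.0188 UMIs per UMI of the marker list against 4.04 in root cells. This gap has the same limit from the choice of cells as that of Apoe, and the part of macrophage RNA was not tested. The copine Cpne8 (26.1 and 5.23 CPM, 2.32), the matrix proteins Spon1 (28.4 and 6.71 CPM, 2.08) and Olfml2a (37.8 and 9.74 CPM, 1.96), the ADP-ribosyltransferase family member Art3 (61.0 and 16.8 CPM, 1.86) and the membrane protein Tmem204 (31.4 and 8.84 CPM, 1.83) completed the 15 leading higher genes. Cp, Arhgdib, Art3, Tmem204 and Pln each overlap a protein-coding gene on the opposite strand.

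Of the genes lower in root cells, Chek2, a kinase of the DNA damage checkpoint, stood at 7.04 CPM (6.07 to 8.13) in root and 31.4 (29.8 to 32.9) in ascending cells, a log2 ratio of -2.15. Among eGFP cells it was at 4.72 CPM in Root, 10.4 in Asc-GFP and 9.20 in Arch-GFP, so ascending tdTomato cells held the highest level of the 5 groups. Aqp1, a water channel, stood at 17.3 CPM (15.8 to 19.0) and 60.5 (58.4 to 62.7), a log2 ratio of -1.80. Rbp4, the plasma carrier of retinol, stood at 162 CPM (157 to 167) and 393 (387 to 398), a log2 ratio of -1.28, with -1.46 in female and -2.20 in male cells. The secreted growth factor Clec11a (6.18 and 20.1 CPM, -1.70), the scaffold protein Dlgap1 (23.0 and 71.9 CPM, -1.64), Pamr1 (20.3 and 54.7 CPM, -1.43), the spindle orientation protein Gpsm2 (15.7 and 40.6 CPM, -1.37), the cytokine Il17b (11.8 and 29.0 CPM, -1.30), the ankyrin Ank2 (39.6 and 96.7 CPM, -1.29) and the actin-associated Pdlim4 (55.3 and 132 CPM, -1.25) were, with Tafa1, Sfrp2, Rgs5 and Plat, also among the 15 leading lower genes. Gpsm2 overlaps Clcc1 on the opposite strand.

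**Figure D3:**
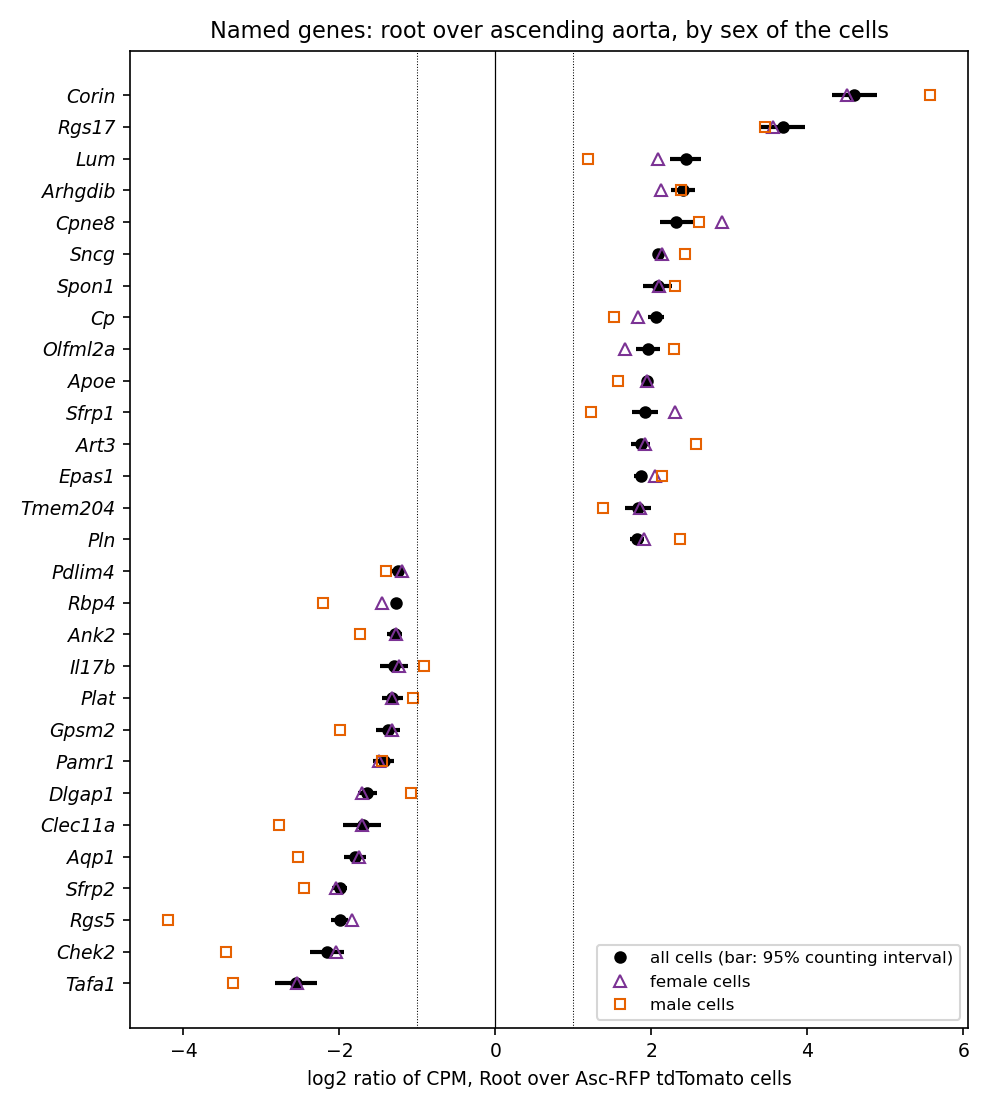
Log2 ratios of 29 of the 30 leading genes, root over ascending tdTomato cells, for all cells (black, with 95% counting intervals), female cells (triangles) and male cells (squares), with dotted lines at 2-fold. All 29, chosen in the pool of these same cells, kept their direction in both sexes. The male ratio lay farther from 0 for Corin (5.58) and Rgs5 (-4.19), and it lay nearer to 0 for Lum (1.18).

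The share of cells with at least 1 UMI of a gene rises with its level per cell, so for genes at low levels it largely restates the mean. Each cell was thinned to 8567 UMIs, which left 1739 root and 3220 ascending cells and dropped 161 and 358 shallower ones. Corin was found in 17.1% of root cells (15.3 to 18.9) and 1.46% of ascending cells (1.07 to 1.94), and in 20.9% and 2.10% before thinning. Rgs17 was found in 15% and 1.61% of thinned cells, against 19.6% and 2.68% before thinning. Apoe was found in 76.4% and 49.7% (84.6% and 61.2% before thinning). Tafa1 was found in 3.11% and 18.7% (5.26% and 26.5%), and Sfrp2 in 18.2% and 50.3% (23.8% and 58.2%). Corin and Rgs17 were thus seen in a minority of root cells, while Apoe was seen in most root cells.

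Free RNA sets a floor for such shares. In the 55 Root macrophage barcodes, with a median of 10701 UMIs, Corin was found in 3.64%, Sfrp2 in 7.27%, and Rgs17 and Tafa1 in none, which allows up to 5.45%. In the 27 Asc-RFP macrophage barcodes, with a median of 9707 UMIs, Corin was found in 3.70%, which is 1 barcode, and the share of Corin in ascending cells was not above it. Ascending cells with and without a Corin UMI were also set side by side, in genes looked at after their values were seen. Among thinned ascending cells, Lum was found in 19.1% of the 47 with Corin (9.15 to 33.3) and 1.92% of the other 3173 (1.47 to 2.46), Pln in 40.4% and 18.4%, and Mfap5 in 51.1% and 82.6%. The highest ascending cell held 8 Corin UMIs. The share of Tafa1 in root cells lies under the limit that the Root barcodes allow, so a difference from free RNA was not detectable at this depth. Apoe was found in 100% of Root macrophage barcodes, which make it, and gives no floor there. Among other leading genes, Sncg was found in 54.1% of root and 22.5% of ascending cells (16.4% in Root macrophage barcodes), Pln in 43.0% and 18.8% (5.45%), Epas1 in 53.6% and 22.4% (3.64%), Rgs5 in 10.6% and 30.4% (1.82%) and Lum in 7.07% and 2.17% (3.64%). In the 34 Root endothelial barcodes, Sncg was found in 20.6%, Pln in 11.8%, Epas1 in 85.3%, Lum in 14.7% and Rgs5 in none. Epas1 and Lum were thus found in a larger share of these barcodes than of root cells. The part of endothelial or free RNA in their shares was not tested. The share of Lum in ascending cells was not above that of the macrophage barcodes. Seen from the side of Lum, the same overlap was Corin in 12.9% of the 70 thinned ascending cells with Lum (6.05 to 23.0). Of the other 3150, 1.21% held Corin (0.855 to 1.65), and the highest ascending cell held 28 Lum UMIs. The part of free RNA in the Corin and Lum shares of ascending cells was not tested. For Tnnt2 the shares were closer, 69.9% and 58.2%, than the levels.

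**Figure D4:**
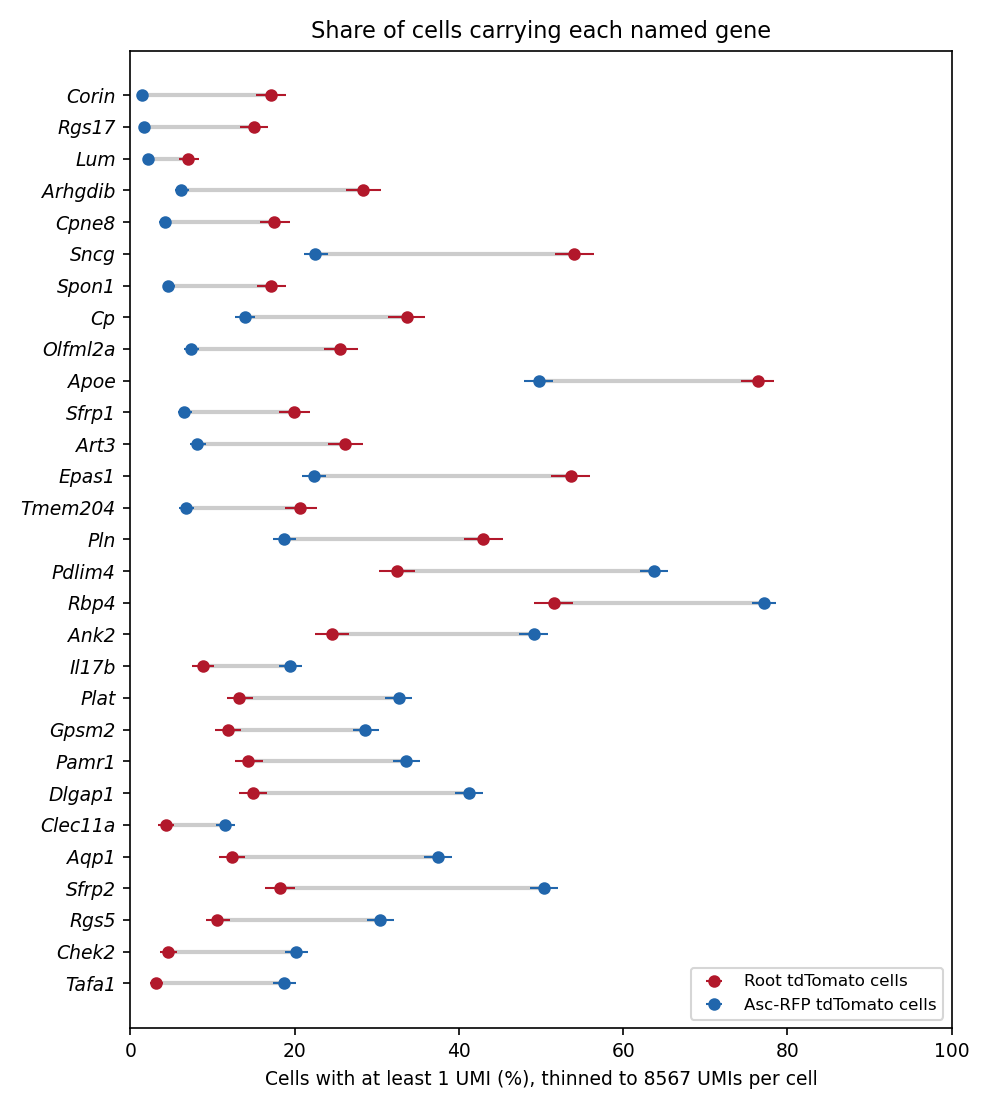
Share of cells with at least 1 UMI of 29 of the 30 leading genes, in percent, after thinning every cell to 8567 UMIs, for root (red) and ascending (blue) tdTomato cells, with exact 95% binomial intervals. Corin (17.1% and 1.46%) and Rgs17 (15% and 1.61%) were in few cells, and Apoe (76.4% and 49.7%) was in most root cells.

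The root cells were not uniform in these genes. Among thinned root cells, 297 held a Corin UMI and 1442 did not. Rgs17 was found in 14.5% of the former (10.7 to 19.0) and 15.1% of the latter (13.3 to 17.1), so these intervals overlapped. Apoe was found in 84.2% of cells with Corin and 74.8% of those without, Sfrp2 in 7.41% and 20.4%, and Tafa1 in 1.01% and 3.54%. Genes of the contrast beyond the 5 markers were looked at after their values were seen. Mfap5 was found in 12.5% of cells with Corin and 52.5% of those without, Rbp4 in 31.3% and 55.7%, Pln in 68.0% and 37.8%, Sncg in 72.4% and 50.3%, and Tnnt2 in 68.7% and 70.1%. By contrast, the 261 cells with an Rgs17 UMI differed from the 1478 without one little in Corin (16.5% and 17.2%) and Mfap5 (44.8% and 45.8%), and more in Arhgdib (41.8% and 26.0%) and Lum (12.3% and 6.16%).

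Before thinning, 398 root cells (20.9% of 1900) held a Corin UMI, and their median of 13840 UMIs was near the 13726 of the other 1502. Tnnt2 stood at 1866 CPM in the cells with Corin and 789 in those without, and Apoe at 899 and 455 CPM. Kcnk3 was higher in the cells with Corin by a log2 ratio of 2.43, C1s1 by 1.82, Art3 by 1.77, Thbs1 by 1.76, Gata4 by 1.60, Timp4 by 1.55 and Notch3 by 1.34. Npr1, the receptor of the peptide that corin makes, was lower (11.3 and 49.7 CPM, log2 ratio -2.14), as were Mfap5 (-2.07), Sfrp2 (-1.94), Actn2 (-1.81), Wif1 (-1.70) and Comp (-1.47). In the root cells without a Corin UMI, the log2 ratio over ascending cells was 1.67 for Apoe, 1.22 for Tnnt2, 1.79 for Gata4, -1.74 for Sfrp2 and -2.26 for Tafa1. Corin cells were unevenly spread over the sexes: after thinning, 14.4% of female (12.7 to 16.3) and 35.2% of male root cells (28.5 to 42.3) held a Corin UMI, against 1.28% and 1.64% of ascending cells. Mfap5 was found in 49.1% of female and 17.9% of male root cells, and Sfrp2 in 19.9% and 9.18%. These intervals cover the counting of cells alone, and sex and animal cannot be told apart in these shares. Cells with and without Corin were compared over both sexes together, and the part of sex in their differences was not tested.

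The eGFP cells give each gene's level where the neural crest mark is present. Root eGFP cells (570) come from the same library as the root cells, so both sets of ratios share a library and their likeness is no independent support. By its levels in the 5 groups, Corin ran from Root tdTomato and Root eGFP down to Asc-RFP, Asc-GFP and Arch-GFP, and the interval of Root eGFP cells (37.1 to 46.4 CPM) lay just below that of Root tdTomato cells. For Gata4 the 2 Root groups overlapped (11.9 to 14.7 and 12.9 to 18.7 CPM). Tnnt2 and Lum stood higher in Root tdTomato than in Root eGFP cells, with Lum at 7.21 CPM in Root eGFP and 1.64 in Asc-GFP eGFP cells. Epas1 was higher in both Root groups, 129.7 and 156 CPM, and lowest in ascending tdTomato cells, with 98.3 in Asc-GFP and 74.2 in Arch-GFP eGFP cells. Tbx20 stood at 45.9, 29.6 and 13.7 CPM in Root, Asc-GFP and Arch-GFP eGFP cells. Thbs1 stood at 48.5 CPM in Root and 2.89 in Asc-GFP eGFP cells, and Col8a1 at 27.4 and 2.98 CPM.

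**Figure D5:**
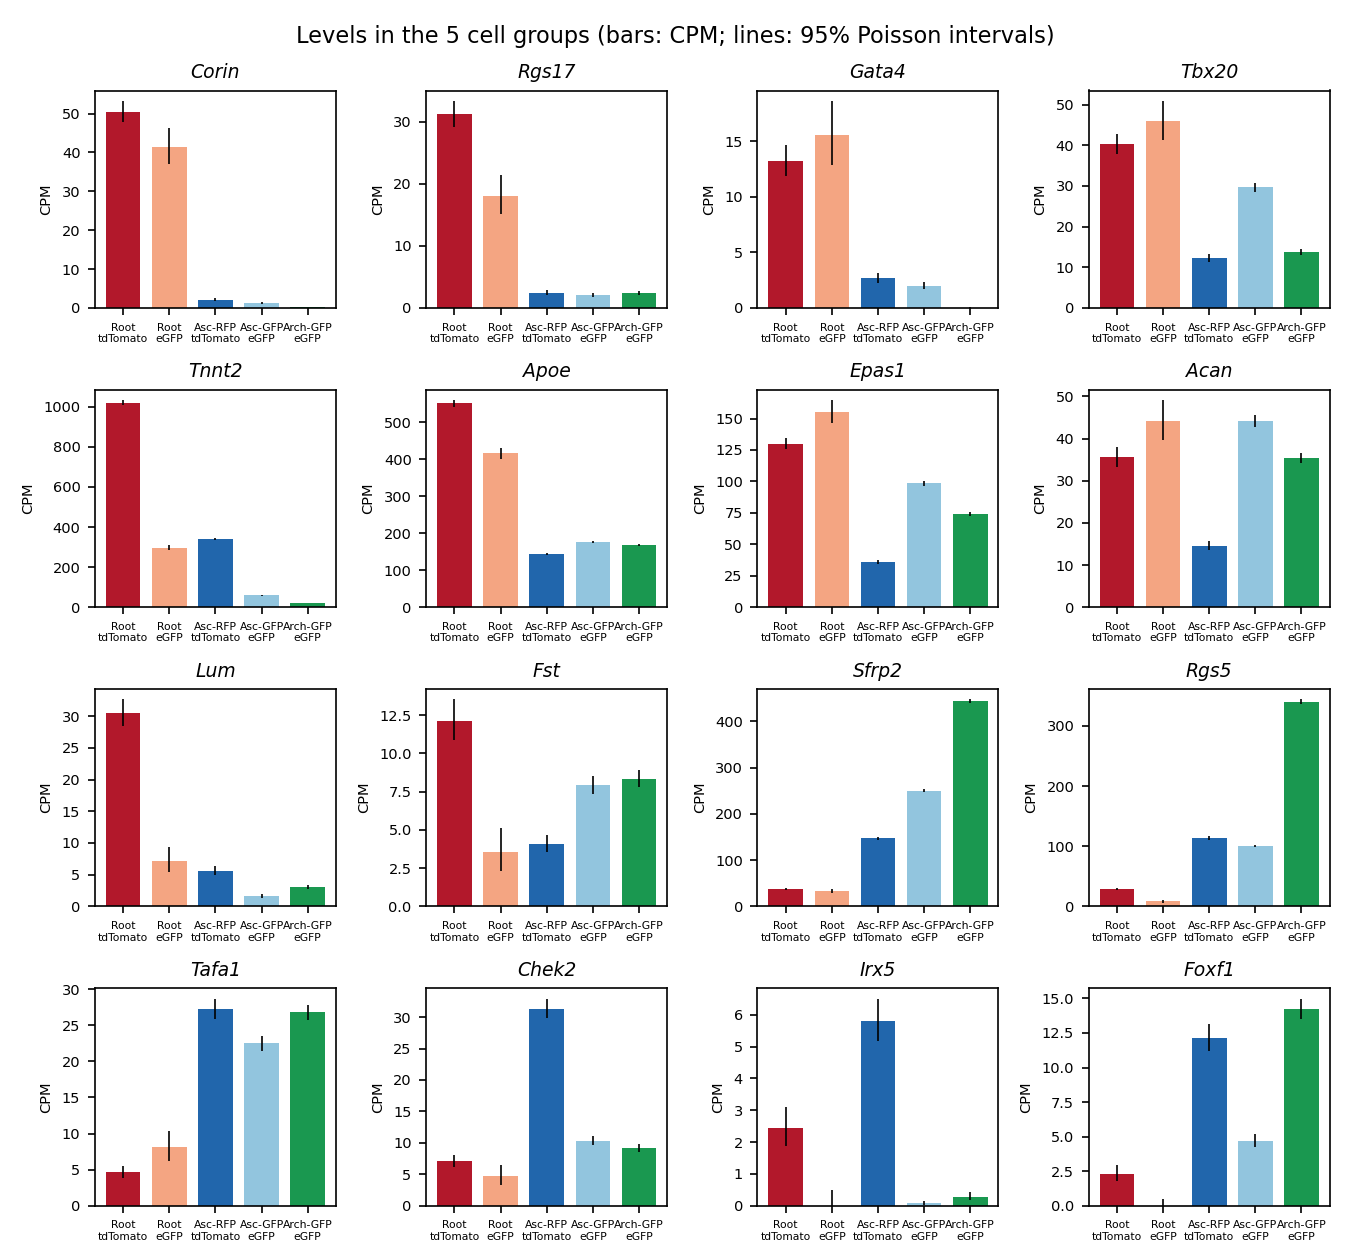
Levels of 16 genes in CPM in tdTomato cells of Root and Asc-RFP and in eGFP cells of Root, Asc-GFP and Arch-GFP, with 95% Poisson intervals and a separate y axis from 0 for each gene. Corin, Rgs17 and Gata4 were high in both Root groups, Tnnt2 and Lum were highest in Root tdTomato cells, and Sfrp2 and Rgs5 were highest in Arch-GFP.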

How the data were processed

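The 4 libraries of sorted aortic cells used 10x Genomics 3′ v3.1 reagents, per the labels' protocols. The deposited matrices hold counts of UMIs for each gene in each barcode, which Cell Ranger 7.0.0 wrote, per the file headers. The submitters' processing notes name mm10 and Seurat 4.3, whose output was not used, and state 1841 Root and 2450 Asc-RFP cells after filtering, against 4040 and 6539 barcodes in the files. The Root and Asc-RFP libraries hold 41479646 and 57063251 UMIs. Strand counting was not given in the sources used here. Of 32287 features, 32235 were matched to GENCODE M21 by identifier.

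Counts were summed over the cells of each group and scaled to CPM (Python 3.11.15, numpy 2.4.6, scipy 1.17.1, pandas 2.3.3, matplotlib 3.10.9). Intervals are at 95%: exact Poisson for levels, conditional binomial (exact) for ratios and exact binomial for shares. They cover counting error alone and hold no spread between animals. With 1 library per group no test was run. A count of 0 was set against a floor of 3 UMIs. Sex of a cell was read from Xist and 4 Y-linked genes. The eGFP cells needed at least 8 eGFP and at most 1 tdTomato UMIs. Free RNA was not removed and no doublet caller was run. Alternatives left out cells with RNA of both sexes and the deepest 5%, or changed the sex, reporter, quality, marker, scaling (edgeR 4.0.16 TMM in R 4.3.3) and level filters. The calculations were checked on simulated counts.

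The cell rule, the 5 markers, the 29 gene lists and the 13 lists of cell markers were chosen with earlier results of these data known. Named genes are the 15 highest and 15 lowest at 20 CPM by the interval bound nearest 0, leaving out genes of the cell rule, mitochondrial, ribosomal protein, Xist, Tsix and Y-linked genes, the 5 markers, and up to 4 members per list of largest size at 5 CPM. Other list members are given with their ratio only to complete a list's count. Results of some single genes are not reported here, and counts and medians over lists include them. Mfap5, Pln and other genes compared between cells with and without Corin or Lum were chosen after their values were seen.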

Additional observations from a re-analysis of the deposited data

Results flagged for a closer look

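In 2 of the named genes the segments differed in opposite directions by reporter colour, by at least 0.5 on the log2 scale in either colour and with 1 library per group, and the difference between the colours was not tested. Both ratios use the Root library. Fst, an activin-binding protein, had a log2 ratio of 1.57 in tdTomato cells (12.1 CPM in Root and 4.09 in Asc-RFP) and of -1.16 in eGFP cells (3.54 in Root and 7.91 in Asc-GFP). After thinning, Fst was found in 2.93% of root (2.19 to 3.84) and 2.45% of ascending tdTomato cells (1.95 to 3.05), so these intervals overlapped. Before thinning, the highest root cell held 56 Fst UMIs and the highest ascending cell 16, so few cells carry much of the Fst level. In tdTomato cells with no UMI of macrophage, endothelial or lymphocyte markers its ratio was -1.03, and without cells holding a UMI of 8 fibroblast genes it was 0.22. Piezo2, a stretch-gated channel, had 0.88 in tdTomato cells (13.1 and 7.14 CPM) and -0.56 in eGFP cells (3.80 and 5.62 CPM).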

How the results depend on the processing

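No paired analysis was possible because each group is 1 library with no replicate number. The counts of 49 higher and 31 lower genes became 78 and 58 within male cells, of which there were 212 in Root. They became 113 and 86 with a filter of 5 CPM, 7 and 6 with 100 CPM, and 564 and 572 with no filter beyond 10 UMIs over both groups, where 9730, 1603 and 14743 genes were measured in place of 5767. Over the other alternatives the counts ran from 38 to 61 higher and from 23 to 34 lower. These were female cells, tdTomato of at least 3 UMIs without eGFP, stricter quality limits, cells free of other types' markers or of fibroblast genes, cells without signs of doublets, 2 other scalings, equal weight per cell, and, chosen after seeing the data, leaving out cells with a Corin UMI or with a Lum UMI. The median log2 ratio of the genes at 20 CPM or more was -0.0041, against 0.0015 with scaling by the median ratio and -0.0171 with TMM. Of the gene ratios recomputed, 410 moved beyond the main interval and 1134 did not. Signs turned for Fst (-1.03), Timp4 (-0.09) and Vcam1 (-0.10) in the 291 root and 905 ascending cells free of macrophage, endothelial and lymphocyte markers. They also turned for Dcn (-0.14) without cells with a Lum UMI, and for Nr1d2 (-0.08), Bdnf (-0.21) and Actn2 (0.15) within male cells. The cause was not tested. Igfbp2 (-0.36 pooled) turned to 0.21 in female and 0.13 in male cells, and had -1.72 in cells free of macrophage, endothelial and lymphocyte markers and -0.84 in cells free of fibroblast genes. Medians near 0 also turned: Wnt antagonists to -0.47 at 20 CPM, collagens to -0.29 at 20 CPM, contractile genes to 0.10 within male cells and lipid genes to -0.09 within male cells. With 1 library per group, spread between animals is unknown, and below 20 CPM the counting intervals widen.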

Other observations

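All 30 measured members of the oxidative phosphorylation list lay within 0.5 on the log2 scale, where 6.87% of all genes lay beyond it. Their median was -0.16 and 28 of them were below 0, among them Uqcrq (249 CPM in root and 297 in ascending cells, -0.25) and Cox5a (175 and 206 CPM, -0.24). Of 15 measured circadian genes, the clock repressors Per1 (0.63) and Nr1d2 (0.56) were higher and 13 were within. Immediate-early and heat shock genes, which respond to dissociation, had 4 of 23 measured members higher and none lower (median 0.22): Hspa1b (531 and 333 CPM, 0.67), Jun (837 and 549.6 CPM, 0.61), Hspb1 (3762 and 2490 CPM, 0.60) and Hspa1a (0.53), of which Hspa1a and Hspa1b are near-identical copies. Within female cells the ratio was 0.30 for Hspa1b, 0.28 for Jun and 0.17 for Hspa1a, and within male cells 0.84, 0.66 and 0.67.

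Growth factor genes had 2 of 15 measured members higher, the IGF-binding protein Igfbp4 (184 and 91.5 CPM, 1.01) and Fgf1 (61.1 and 39.0 CPM, 0.65). Igfbp2 was lower in pooled root cells (48.5 and 62.0 CPM, -0.36) while it was higher within each sex, and male cells held more of it in both segments (106 and 97.3 CPM) than female cells (40.5 and 34.9 CPM). Of 25 measured genes of heritable aortic disease, 21 were within, Notch1 (1.28) and Prkg1 (0.71) were higher and Mfap5 (-1.16) and Col5a1 (-0.57) were lower.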
